A study of Rattus norvegicus with 4 samples.

Results

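The adipocyte identity genes described here are 10 genes of fat cells: the adipokine genes Adipoq, Lep and Cfd, the regulator gene Pparg, the lipid uptake genes Lpl, Cd36 and Fabp4, and the lipid droplet and lipolysis genes Plin1, Lipe and Pnpla2. The members were fixed by gene symbol, and every probe set whose platform annotation names only 1 of these genes was used. All 10 genes were measured, by 12 probe sets of the 20826 that name a single gene and the 31099 on the array, and the 20826 cover 14217 genes. A further probe set that names Cd36 together with another gene was left out. Plin1 and Lipe had more than 1 probe set each, and for them the probe set with the higher mean stands for the gene unless stated.

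Expression was measured on single-colour oligonucleotide arrays in 4 mammary cancers, here tumours 1 to 4, with 1 array per tumour. They came from female Sprague-Dawley rats, an outbred stock, given a single whole-body dose of 0.5 Gy of carbon ions (290 MeV/u, spread-out Bragg peak of 6 cm) at 7 weeks of age and then given, once older than 9 weeks, the AIN-76A diet with corn oil at 23.5%. All tumours share strain, irradiation and diet, and neither unirradiated tumours nor normal mammary gland or fat pad are analysed here. Nothing in the labels says whether each tumour came from a different rat. With 1 group, the comparisons are between tumours, no significance test is possible between them, and the SD given is the spread over the 4 tumours, in which biological and technical variation cannot be told apart. Values are the deposited signal or log2(signal + 16), where a difference of 1 is 2-fold for bright genes and understates the change of dim ones. Probe-set means over the 4 tumours had a median of 7.81 log2, a signal of about 209, which served as the filter level, and a gene below it is called dim. The number of arrays limits the precision.

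White adipocytes store triglyceride in a single large lipid droplet and release adipokines into the blood. The nuclear receptor encoded by Pparg drives their differentiation and, together with C/EBP factors, the expression of many of the other members. Lipoprotein lipase frees fatty acids from circulating lipoproteins, Cd36 and Fabp4 carry them across the membrane and through the cytosol, perilipin coats the droplet, and the lipases encoded by Pnpla2 and Lipe break its triglyceride down in succession. The mammary gland lies in a fat pad, so a tumour sample can include adipocytes. Several members are not exclusive to them: Lpl and Cd36 are also made by milk-producing epithelium, Cd36 and Fabp4 by capillary endothelium and macrophages, and Pnpla2 by most tissues.

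The sequences before the start sites of the members at least 2-fold apart between tumours, and of Lep, are printed as a description. Lep had a narrow range, but its signal was near the bottom of the scale in all tumours. No difference between tumours can be read there, so Lep is not a contrast to the other genes. RefSeq promoter entries of build GRCr8 were present for 7 of the 10 members (8 entries, because Pparg has a pair of starts), and each sequence below is the 250 bases before the start, 5′ to 3′ on the gene's strand. Capitals mark a match to a searched motif.
Adipoq (chr11:91240170-91240419, minus strand): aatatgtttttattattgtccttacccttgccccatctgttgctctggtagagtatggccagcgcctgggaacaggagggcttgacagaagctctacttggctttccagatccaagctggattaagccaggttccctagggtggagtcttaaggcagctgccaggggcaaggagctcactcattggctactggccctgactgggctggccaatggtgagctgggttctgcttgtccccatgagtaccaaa
Cfd (chr7:10465497-10465746, minus strand): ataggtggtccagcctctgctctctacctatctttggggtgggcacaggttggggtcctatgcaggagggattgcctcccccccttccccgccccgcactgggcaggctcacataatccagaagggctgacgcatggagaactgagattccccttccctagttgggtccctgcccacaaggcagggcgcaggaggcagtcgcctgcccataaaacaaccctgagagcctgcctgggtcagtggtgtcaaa
Cd36 (chr4:18246332-18246581, plus strand): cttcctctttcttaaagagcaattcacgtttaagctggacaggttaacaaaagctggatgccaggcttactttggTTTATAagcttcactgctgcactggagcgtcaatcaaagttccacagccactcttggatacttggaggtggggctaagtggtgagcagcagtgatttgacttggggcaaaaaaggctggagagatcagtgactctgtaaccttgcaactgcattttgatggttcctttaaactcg
Lep (chr4:58626288-58626537, plus strand): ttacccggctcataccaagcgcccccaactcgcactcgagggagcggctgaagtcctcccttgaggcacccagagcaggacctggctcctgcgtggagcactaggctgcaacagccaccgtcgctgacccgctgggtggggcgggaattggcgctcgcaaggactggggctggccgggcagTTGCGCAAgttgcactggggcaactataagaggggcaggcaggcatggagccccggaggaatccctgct
Fabp4, Lpl and Lipe had no entry. The motifs searched, on either strand, were AGGTCA, the half-site of nuclear receptors, a pair of AGGTCA copies in the same direction with 1 base between them, the arrangement bound by PPAR and RXR, TTGCNNAA, a C/EBP core, and TATAAA. A pair contains AGGTCA by construction. Of the 8 entries, none held AGGTCA or the pair, 3 held TTGCNNAA and 1 held TATAAA, and among all 33469 promoter entries the shares were 14.1%, 0.0508%, 9.22% and 12.9%. TTGCNNAA matched in Lep as TTGCGCAA at bases 69 to 62 before the start, in Plin1 as TTGCCCAA at bases 77 to 70, and in an entry of Pparg as TTGCCAAA at bases 174 to 167. The Cd36 match, TTTATA at bases 175 to 170, is TATAAA on the reverse strand. A match describes the letters in this window only, and the printed Adipoq and Cfd windows held none.

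Tumour 2 had the highest level of 6 of the 10 genes, namely Adipoq, Cfd, Lpl, Cd36, Fabp4 and Plin1, and 23.2% of all named genes were highest in that tumour. Of the other members, Pparg and Pnpla2 were highest in tumour 1 (29.9% of all named genes), Lipe in tumour 3 (22.4%) and Lep in tumour 4 (24.5%). Tumour 4 had the lowest level of Adipoq, Cfd, Cd36 and Fabp4, 4 of 10, against 23.3% of all named genes. Pparg, Lpl and Plin1 were lowest in tumour 3 (25.8%), Lep and Pnpla2 in tumour 2 (20.6%) and Lipe in tumour 1 (30.3%). These same 4 genes had a range of at least 1 log2, which is 2-fold, between the highest and lowest tumour, against 21.1% of all named genes. Of the 10 members, 6 were dim, with a mean under the filter level, against 33.9% of all named genes, and ranges are wider among dim genes. Fewer cells of a type and less transcript per cell cannot be told apart in whole-tumour RNA. Of the 6 dim members, 3 reached the 2-fold range against 38.1% of dim named genes, and of the 4 others, 1 did against 12.4%.

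**Figure D1:**
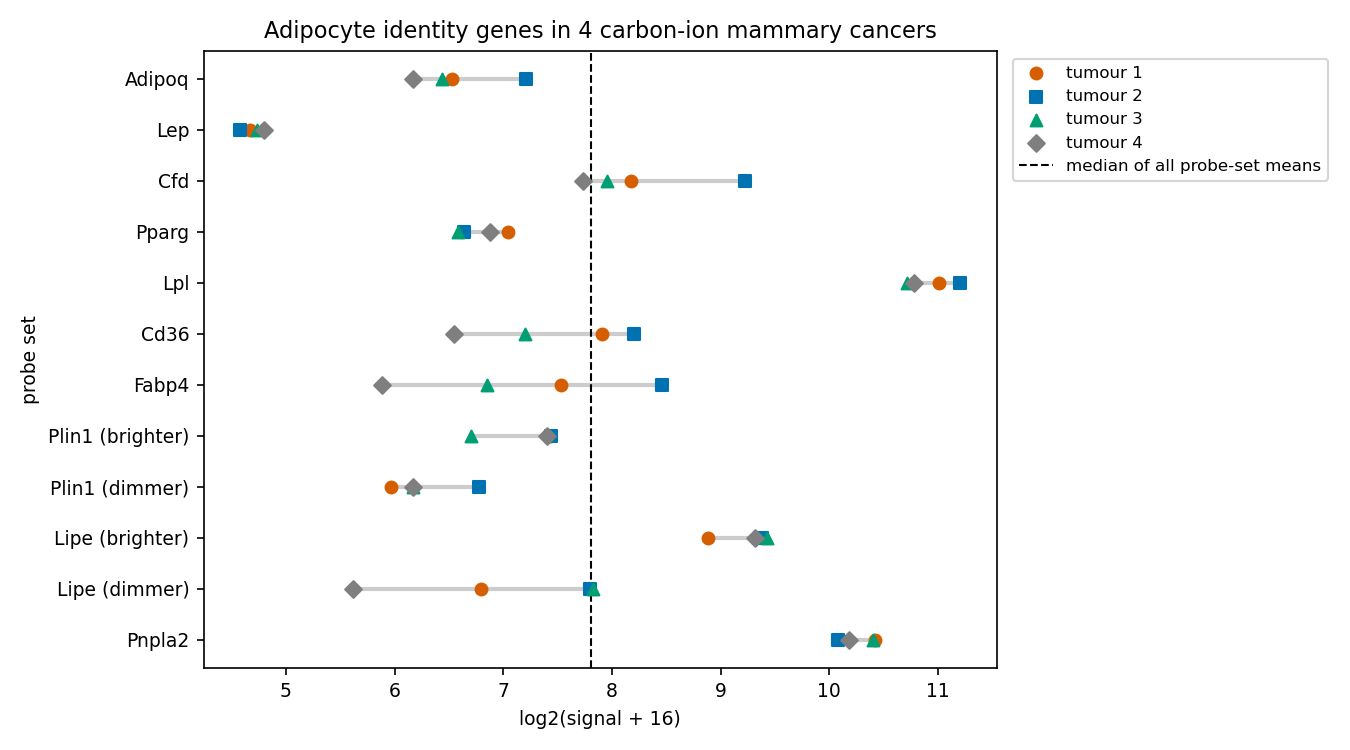
Signal of each adipocyte identity gene on the x axis as log2(signal + 16), with a row for each of the 12 probe sets, a point for each tumour and a grey line from the lowest to the highest. The dashed line is the median of all probe-set means, 7.81. Tumour 2 (blue squares) lies at the right end of the rows of Adipoq, Cfd, Lpl, Cd36, Fabp4 and Plin1, and tumour 4 (grey diamonds) at the left end of those of Adipoq, Cfd, Cd36, Fabp4 and the dimmer Lipe probe set. Levels of different probe sets are not comparable.

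Among the adipokine genes, Cfd, which encodes adipsin, the serine protease complement factor D, separated the tumours most. Its signal was 273.6, 582.4, 231.4 and 196.3 in tumours 1 to 4, with a mean of 8.27 ± 0.66 log2 (SD, n = 4). Tumour 2 alone was high, by 1.05 log2 over the next tumour, and tumours 1, 3 and 4 lay within 0.45 of each other. The highest signal was 2.97 times the lowest.

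Adipoq, which encodes adiponectin, a hormone made almost only by adipocytes, had the same order of tumours, with every value under the filter level. The signal was 76.3, 132.0, 70.7 and 55.9, and the mean was 6.59 ± 0.44 log2 (SD, n = 4). Tumour 2 was again the high one, 2.36 times tumour 4 and 0.68 log2 above the next tumour. Without tumour 2 the range of Adipoq was 0.36 log2 and that of Cfd 0.45, in place of 1.04 and 1.49, so the 2-fold range of both genes rested on that tumour, and 2 of the 10 members kept such a range without it.

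Lep, which encodes the satiety hormone leptin, was near the bottom of the signal scale in all tumours, at 9.51, 7.88, 10.6 and 11.7. Its tumour order was unlike that of the other adipokine genes, with tumour 4 highest and tumour 2 lowest. The range was 0.22 log2 with a pseudocount of 16 and 0.52 with a pseudocount of 1, so its size depends on the pseudocount. At such a signal no difference between tumours can be read. No detection call was used here.

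The regulator gene Pparg was dim in all tumours too, with a signal of 115.9, 83.3, 79.8 and 101.4 and a mean of 6.78 ± 0.22 log2 (SD, n = 4). Its range was 0.46 log2, with tumour 1 highest and tumours 2 and 3 within 0.05 of each other at the low end. Tumour 2, which was highest for 6 members, was thus below the mean of the other tumours for Pparg, by -0.20. The probe set does not separate the transcripts of its alternative starts here.

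The lipid uptake genes shared tumour 2 as the highest. Fabp4, the fatty acid binding protein of adipocytes, also found in endothelium and macrophages, had the widest range of all members. Its signal was 169.1, 337.0, 99.5 and 43.0, and the mean was 7.18 ± 1.09 log2 (SD, n = 4). The tumours were spread out in the order 2, 1, 3 and 4, with gaps of 0.93 at the top and 0.97 at the bottom, so no single tumour stood alone. The highest signal was 7.83 times the lowest, a range of 2.58 log2, but only tumour 2 lay above the filter level, so the size of the ratio is uncertain.

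Cd36, a fatty acid translocase and scavenger receptor, had the same order. Its signal was 224.5, 279.3, 130.7 and 77.2, with a mean of 7.46 ± 0.75 log2 (SD, n = 4). Tumours 1 and 2 were high, 0.30 log2 apart, and tumour 4 was low, 0.66 below tumour 3. The highest signal was 3.62 times the lowest, and tumours 1 and 2 alone exceeded the filter level.

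Lpl, the secreted lipase that acts at the capillary wall, was bright in all tumours and differed little. Its signal was 2048, 2348, 1660 and 1746, with a mean of 10.93 ± 0.23 log2 (SD, n = 4) and a range of 0.50. Tumours 2 and 1 were the higher pair and tumours 3 and 4, 0.07 apart, the lower pair, as for Cd36 and Fabp4, at a much smaller difference.

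The lipid droplet and lipolysis genes did not share this order. Plin1, perilipin 1, the coat protein of the adipocyte droplet, had a signal of 156.4, 157.6, 88.3 and 153.4 on the brighter probe set. Tumours 1, 2 and 4 were within 0.03 log2 of each other and tumour 3 was 0.70 below them. The dimmer probe set read 46.3, 93.9, 55.8 and 55.9, where tumour 2 was high by 0.61 and tumour 3 was not low. Both probe sets were dim in every tumour and had tumour 2 highest, but by only 0.01 log2 on the brighter, and they disagreed on the low tumour.

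Lipe, hormone-sensitive lipase, was at 457.5, 650.7, 671.4 and 622.2 on the brighter probe set, a range of 0.54 log2. Tumour 1 was low, by 0.43, and the other tumours lay within 0.11 of each other. On the dimmer probe set the signal was 95.2, 206.2, 211.0 and 33.2, a range of 2.21 log2, with tumour 4 lowest. Tumour 4 thus stood at -1.85 against the mean of the others on the dimmer probe set and at 0.09 on the brighter, and the probe sets gave no common level for it. They shared the higher place of tumours 2 and 3 over tumour 1. Averaging the probe sets gave Lipe a range of 1.16, which would raise the members with a 2-fold range from 4 to 5.

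Pnpla2, adipose triglyceride lipase, which takes the first fatty acid from triglyceride, was bright and the least variable of the members that reached the filter level. Its signal was 1351, 1070, 1341 and 1142, with a mean of 10.27 ± 0.17 log2 (SD, n = 4). Tumours 1 and 3 were within 0.01 log2 of each other and tumour 2 was lowest, opposite to its place in Cfd and Fabp4, over a range of 0.33.

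**Figure D2:**
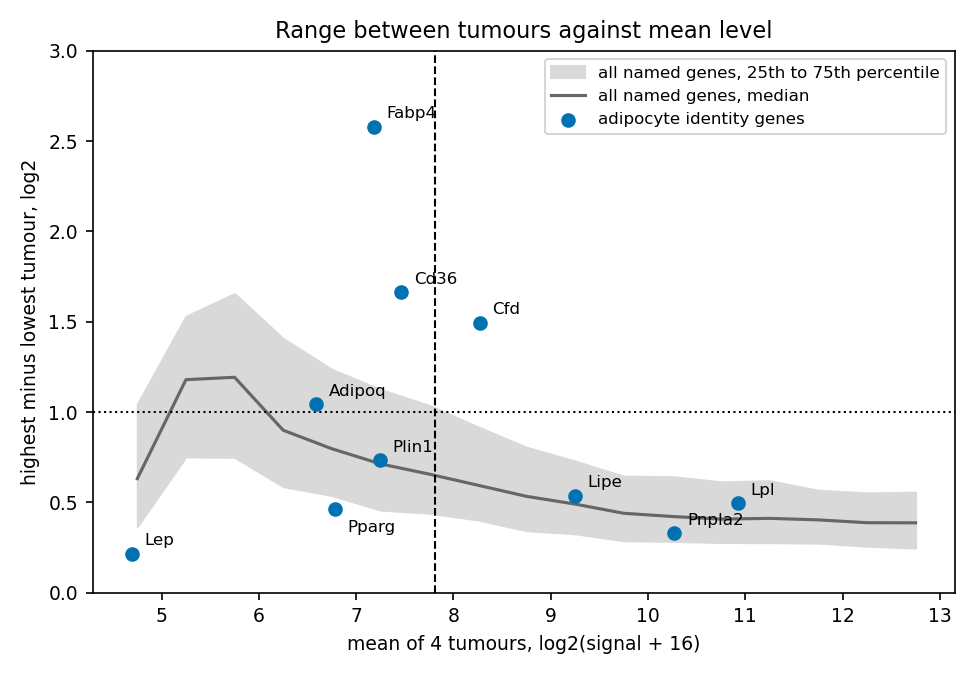
Range between the highest and lowest tumour (y axis, log2) against the mean over 4 tumours (x axis, log2(signal + 16)) for the brightest probe set of each adipocyte identity gene (blue). The grey line and band are the median and the 25th to 75th percentile of all named genes in steps of 0.5 log2, the dotted line is the 2-fold range and the dashed line the filter level. Fabp4, Cd36 and Cfd lie above the band, Lep and Pparg below it, and Adipoq, Plin1, Lipe, Lpl and Pnpla2 within it.

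Over the 10 genes, the median difference of a tumour from the mean of the other 3 was 0.15 log2 in tumour 1, 0.32 in tumour 2, -0.28 in tumour 3 and -0.16 in tumour 4. The same medians over all 14217 named genes were -0.0020, 0.0065, -0.0028 and 0.0065. Tumour 2 was above the mean of the others for 7 of 10 members, tumour 1 for 6, tumour 4 for 4 and tumour 3 for 3, where the shares over all named genes were 50.9%, 49.8%, 50.9% and 49.6%. The counts of tumours 1 and 4 are nearest these shares, and with 10 members those of tumours 2 and 3 are only a few genes from them. The exceptions in tumour 2 were Lep, Pparg and Pnpla2. In tumour 3, Lpl, Cd36, Fabp4, Cfd, Pparg and Plin1 lay at -0.27 to -0.72, and without tumour 2 its median was -0.0029. The median of tumour 1 moved between 0.01 (without tumour 3) and 0.29 (without tumour 2), and was 0.04 without tumour 4 and 0.04 with the probe sets of a gene averaged. Averaging also took tumour 2 to 0.54 and tumour 4 to -0.38, so the sizes of these medians depend on the probe sets of Plin1 and Lipe. Restricted to the 4 members that reached the filter level, the medians were -0.0066, 0.27, -0.05 and -0.16.

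In pairs of tumours, tumours 2 and 4 had 4 of 10 members at least 2-fold apart, all higher in tumour 2, and 6.27% of all named genes were that far apart. Tumours 2 and 3 had 3 such members (5.99% of all genes), tumours 1 and 4 had 2 (9.35%) and tumours 1 and 2 had 1 (8.57%). Tumours 1 and 3 had none (10.5%), and neither had tumours 3 and 4 (7.77%). Adipoq, Cfd, Cd36 and Fabp4 were the members apart between tumours 2 and 4.

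**Figure D3:**
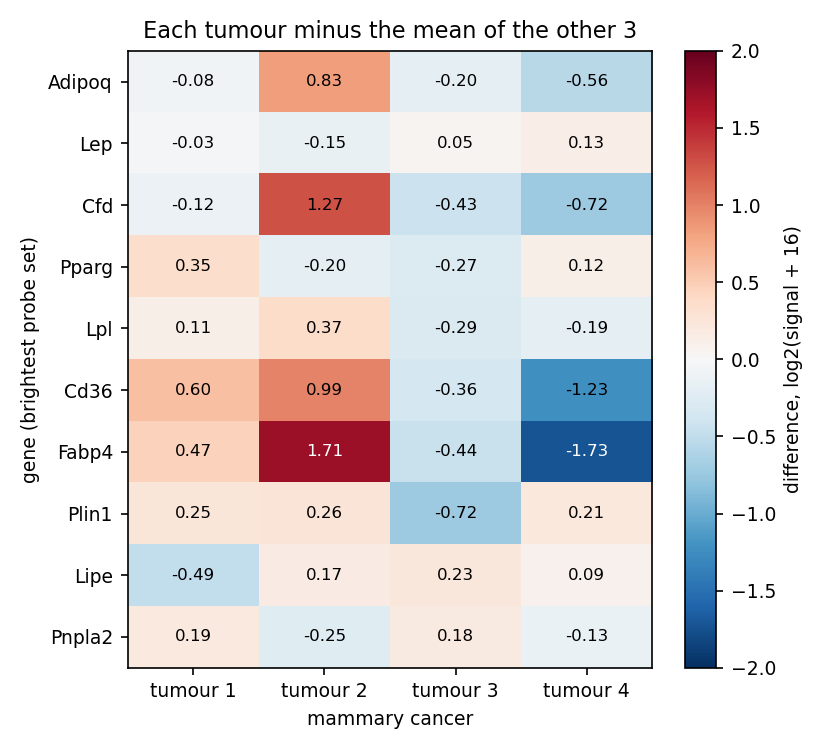
Difference of each tumour (columns) from the mean of the other 3 for the brightest probe set of each adipocyte identity gene (rows), in log2(signal + 16), red for higher and blue for lower. The column of tumour 2 holds the highest values, 1.71 for Fabp4, 1.27 for Cfd, 0.99 for Cd36 and 0.83 for Adipoq, and the column of tumour 4 the lowest, -1.73 for Fabp4 and -1.23 for Cd36.

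Other adipocyte markers were looked at beside the members. Of 10 adipocyte markers (8 members, Cidec and Plin4), 3 had a mean at or above the filter level: Cfd, Lipe and Pnpla2. Over all named genes that share was 66.1%. Another 6 markers were under the filter level in every tumour: Adipoq, Lep, Plin1, Pparg, Cidec and Plin4. The share of all named genes under it in every tumour was not computed. Cidec, which fuses lipid droplets in fat cells, was at 6.10, 4.64, 4.33 and 4.86 log2 and Plin4, another droplet coat gene, at 7.21, 7.03, 6.44 and 5.84. Tumour 1 was highest for both, not tumour 2. None of the 6 brown adipocyte markers reached the filter level, with Ucp1, the uncoupling protein of brown fat, between 4.23 and 6.10. The means of all 10 epithelial markers and all 7 measured milk genes, which mark the labelled tissue, reached it. Of genes of other organs, 2 of 8 skeletal muscle genes did, Myh1 and Atp2a1, and none of 6 liver genes, although the liver gene Alb was above it in tumour 2 alone, at 8.31 log2. Myh1 was bright, at 12.39 to 12.48 log2, while the muscle genes under the filter level had means of 5.03 to 6.66. Whether the Myh1 probe set reads muscle transcript was not tested. Since the sensitivity of probe sets differs and no fat or normal gland array is used here, these counts do not measure how much fat the tumours held.

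Of 78 further genes of adipokine signalling, adipogenic regulation, lipid droplets, lipolysis, lipid uptake and triglyceride synthesis, 73 were measured and 54 reached the filter level. A range of at least 2-fold was found for 19 of the 54 (35.2%), against 12.4% of all genes at that level. Tumour 1 was highest for 23 of the 54 and tumour 2 for 11, and the shares over all genes at that level were 28.0% and 26.4%. A shift of tumour 1 was also found outside this programme. It was above the mean of the others for all 10 fibroblast markers (49.8% of all named genes), with a median of 0.86 log2. For 7 of 10 epithelial markers it was lowest (30.3% of all named genes), with a median of -0.62. The median difference of tumour 2 over the 54 genes was -0.0082 log2, beside 0.27 over the 4 members at the filter level. Over all 73 measured genes it was -0.04, beside 0.32 over the 10 members.

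Among other adipokines, 4 of 5 genes at the filter level had a 2-fold range and 4 were highest in tumour 1. For all genes at that level the shares were 12.4% and 28.0%. Rarres2, which encodes chemerin, was at 10.19 in tumour 1 and at 8.43 to 9.28 elsewhere, and Agt, angiotensinogen, at 8.99 and 7.38 to 7.99. Angptl4, an inhibitor of lipoprotein lipase, was instead highest in tumour 3, at 9.81 against 8.34 to 9.05. The receptors of the members' products differed less. The adiponectin receptor genes Adipor1 and Adipor2 had ranges of 0.24 and 0.33 log2, and the leptin receptor gene Lepr, which was dim, 0.36. Cdh13, the cadherin that binds adiponectin, had a range of 1.05 and was lowest in tumour 1, as it was on its other probe sets.

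Regulators of adipogenesis had tumour 1 highest for 5 of 10 genes at the filter level, where the share of all genes was 28.0%. Tumour 2 was lowest for 6, a place it took for 17.6% of all genes at that level. Cebpa, which acts with Pparg in adipocytes, was at 10.24 in tumour 1 and at 9.23 to 9.28 elsewhere, and all 5 of its probe sets were highest there. Cebpd, an early adipogenic factor, was at 11.45 in tumour 1 and 10.01 in tumour 2, and all 3 of its probe sets were highest in tumour 1. Klf4, an early activator of Cebpb, stood at 10.77 against 8.57 to 8.86. Rxra, the partner of the Pparg receptor on DNA, had tumour 4 highest at 9.00 and tumour 2 lowest at 7.75. Cebpb itself varied by 0.04 log2.

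The partners of the lipases and of the droplet coat varied unevenly. Abhd5, the activator of adipose triglyceride lipase, was within 0.11 log2 over the tumours on its brighter probe set and within 0.75 on the other. G0s2, the inhibitor of the same lipase, was at 12.00, 10.96, 11.56 and 9.64, with tumour 4 lowest by 1.32. Mgll, monoglyceride lipase, which completes triglyceride breakdown, was at 8.37, 8.94, 8.07 and 8.93 on its brightest probe set. Its other probe sets had ranges of 0.34, 0.15 and 0.97, with tumours 4, 4 and 1 highest. Plin2, the droplet coat of most cells and of milk fat, was bright and within 0.27, and Plin5, the coat of oxidative tissues, was dim with a range of 0.74. No gene at the filter level in the droplet coat list had a 2-fold range, out of 6, near the share of 12.4% over all genes.

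Of the lipid uptake partners, 4 of 12 genes had a 2-fold range and 7 were highest in tumour 1. All genes at the filter level had shares of 12.4% and 28.0%. Gpihbp1, which holds lipoprotein lipase on capillary endothelium, had a range of 0.26 log2 and Lmf1, the maturation factor of that lipase, of 0.67. Acsl1, which activates fatty acids, was at 10.25, 9.32, 8.50 and 7.83, with tumour 1 highest on all 3 of its probe sets. Fabp3, the fatty acid binding protein of muscle and lactating gland, was lowest in tumour 4, at 9.64 against 10.48 to 11.21, and Fabp5, of epidermis and macrophages, was at 12.72 in tumour 1 and 11.66 in tumours 2 and 3. In triglyceride synthesis 3 of 13 genes at the filter level had a 2-fold range, against 12.4% of all genes at that level. Gpd1, which makes glycerol 3-phosphate, was highest in tumour 2 on both its probe sets, at 9.54 against 8.33 to 8.86 on the brighter. Thrsp, a lipogenic gene, was at 12.61, 11.49, 12.25 and 10.03, with tumour 1 highest and tumour 4 lowest on all 3 probe sets.

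**Figure D4:**
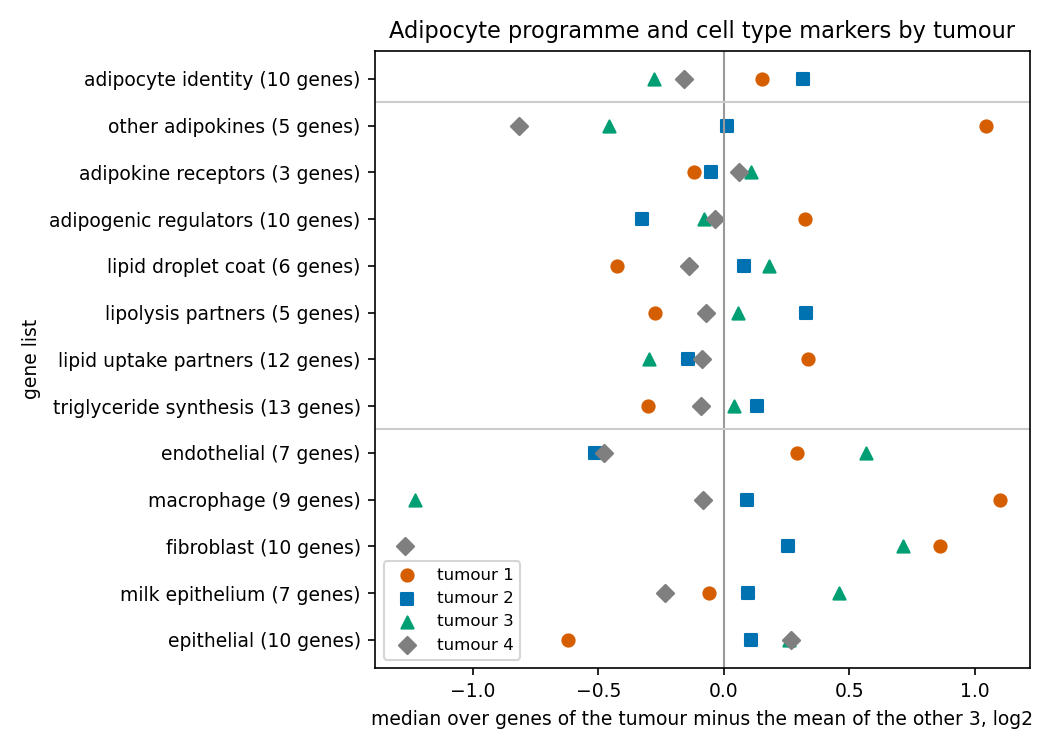
Median over the genes of a list of the difference between a tumour and the mean of the other 3 (x axis, log2), with a row for each list and a point for each tumour. The top row holds the 10 adipocyte identity genes; the other rows hold the genes of each list that reached the filter level, first the adipocyte programme and then cell type markers. Tumour 2 (blue squares) is at 0.32 for the adipocyte identity genes, -0.51 for endothelial, 0.09 for macrophage and 0.26 for fibroblast markers.

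Markers of other cells that make Cd36, Fabp4 or Lpl were set beside those genes. Endothelial markers were not high in tumour 2, with a median difference of -0.51 log2 over the 7 genes at the filter level. None of the 7 was highest there and 4 were lowest (26.4% and 17.6% of all genes at the filter level). Tumour 4, lowest for Cd36 and Fabp4, also had a low endothelial median, -0.48 log2. It was lowest for 3 of the 7 (25.1% of all genes at the filter level). For another 3 it exceeded the average of the rest, and 1 of these was highest there. The summed signal of the 9 measured endothelial markers was 3481, 2233, 3732 and 2716 in tumours 1 to 4. Macrophage markers had 8 of 9 genes highest in tumour 1 and 8 lowest in tumour 3 (28.0% and 21.1% of all genes at the filter level), with a summed signal over 11 measured genes of 16318, 9205, 4902 and 8656. The remaining macrophage gene at the filter level, Mrc1, had the order of Fabp4 and Cd36, at 9.58, 9.70, 9.24 and 9.13 log2, with tumour 2 highest and tumour 4 lowest. Fibroblast markers were lowest in tumour 4 for 9 of 10 genes (25.1% of all genes at the filter level), with a summed signal of 49963, 38455, 47443 and 15534, so tumour 4 was low for these markers and for Fabp4, Cd36, Cfd and Adipoq alike. Milk genes, made by the epithelium that also expresses Lpl and Cd36, were highest in tumour 3 for 5 of 7 (24.5% of all genes at the filter level) and in tumour 2 for none. Tumour 4 was above the mean of the others for none of the 7 and lowest for 3, with Csn2, beta-casein, at a signal of 431 against 10248 to 14739 and Wap, whey acidic protein, at 345 against 2276 to 9061. The summed signal of the milk genes was 60258, 57824, 70619 and 40946, lowest in tumour 4, the tumour that was also lowest for Cd36 and Fabp4. The low sum was not shared by all milk genes. Csn2 and Wap had ranges of 5.04 and 4.65 log2, and the rest 0.35 to 1.28. Csn3 and Csn1s1 were at a signal of 12808 and 11036 in tumour 4, above 12301 and 10804 in tumour 1. Lalba was also lowest in tumour 4, at 13.11 log2 against 13.24 to 13.45. The milk genes other than Csn2, Wap and Lalba were lowest in tumour 1 or tumour 3, and Lpl was lowest in tumour 3. The part of these cell types in the members' values was not tested.

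Profiles over the 4 tumours were compared by Euclidean distance between values centred on each gene's mean, for the 3 members of widest range and all genes at the filter level. Closest to Fabp4 were Mcpt1l1 (distance 0.41 log2), Tmem158 (0.55), Steap1 (0.69), Serping1 (0.73) and Smoc2 (0.86). Closest to Cd36 were Tmem158 (0.23), Steap2 (0.29), Serping1 (0.31), Frzb (0.32) and Timp1 (0.36), and Tmem158 and Serping1 stand in both sets. Closest to Cfd were H19 (0.22), Hpgd (0.26), Ctps1 (0.27), Ccna2 (0.29) and Abracl (0.33). With 4 tumours many genes lie near any given profile, so these names describe the arrays only.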

How the data were processed

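Total RNA of each tumour (8 µg) was primed from the poly(A) tail with a T7 primer and labelled with biotin, per the labels' protocols. The authors deposited linear intensity values, 1 per probe set and array; the labels used here name no software, background correction or scaling method. With 2% of probe sets trimmed at either end, each array averaged 500.1, and the array medians were 221.9, 203.3, 201.8 and 219.2. Probe sets were named from the platform annotation of 2016; 436 name several genes and 9780 others, beside 57 controls, name none here. All 10 members were found by gene identifier in the RefSeq table of GRCr8.

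From these values log2(intensity + 16) was computed without further scaling, because the rule for this gene set names only that transform. A shift to a common array median, used as an alternative, moved the median of all named genes to between -0.09 and 0.08. Of several probe sets, the one with the highest mean stands for a gene. Alternatives were pseudocounts of 1 and 64, median shift, quantile normalization, other probe sets, a filter and each tumour left out. Named genes were all members, the 3 genes of widest range at the filter level per list, 16 partners and receptors, and the 5 closest profiles of 3 members; the text gives a selection. A few other list genes (Ucp1, Cebpb, Mrc1, Alb, Csn3, Csn1s1, Lalba) were chosen after their values were seen. The members and lists were chosen with earlier results of these data known. Calculations used Python 3.11.15, numpy 2.4.6 and pandas 2.3.3, and were tested on simulated data.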

Additional observations from a re-analysis of the deposited data

Results flagged for a closer look

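The brighter probe set of Plin1 had tumour 3 far from the other tumours: the gap of 0.70 log2 to the nearest tumour was 0.952 of the whole range, above Dixon's critical value for 4 samples. The other 11 probe sets of the adipocyte identity genes were not above it. By chance about 1 in 20 groups of samples is, and 6.08% of all named genes were. The dimmer probe set of Plin1 did not set tumour 3 apart, and both probe sets lay under the filter level.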

How the results depend on the processing

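The count of members with a 2-fold range was 4 and stayed between 3 and 5 under other pseudocounts, scalings and probe sets. It ranged from 2 to 4 when a tumour was left out (2 without tumour 2), and was 1 of the 4 members at the filter level. The count of members highest in tumour 2, a result added after the values were seen, was 6 under both scalings and every probe-set choice. Probe-set choice changes Plin1 and Lipe only. A pseudocount cannot change which tumour is highest, so the 6 found there was fixed in advance. With tumour 1, 3 or 4 left out the count was 6 to 7, and such an omission can only keep or raise it. It was 2 of the 4 members at the filter level. The median difference of tumour 2 was 0.76 with the second brightest probe sets in place of 0.32, which changes Plin1 and Lipe only. With a tumour left out, the median difference ranged from 0.01 to 0.29 in tumour 1, 0.29 to 0.42 in tumour 2, -0.41 to -0.0029 in tumour 3 and -0.20 to -0.13 in tumour 4. The median difference of tumour 1 turned from 0.15 to -0.0066 over the 4 members at the filter level, where fewer genes enter. Of 100 ranges of single members under an alternative, 91 moved by less than 1 SD between tumours. Part of the 100 could not move, so this count does not measure stability. Probe-set choices change Plin1 and Lipe only, and leaving out a tumour that is neither highest nor lowest keeps a range unchanged. No paired analysis was possible because there is 1 group. Signal over background limits Lep, Adipoq, Pparg, Plin1 and the low values of Fabp4 and Cd36.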
